A study of Rattus norvegicus with 10 samples.

Results

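Transcripts of 2 neurotrophins, Bdnf and Ntf3, and of 4 of their receptors, Ntrk2, Ntrk3, Ngfr and Sort1, were counted in hippocampal tissue (CA3 and dentate gyrus) from 10 rats. These 6 genes were chosen by name, and their rows were found by matching the RefSeq RNA accessions of the table to the 6 symbols. They had 21 of the 32041 RNA records, and all 21 passed the filter on low counts, which left 22431 records to test. For each gene the record with the highest mean count was taken as the main one, and the others are reported as isoform records.

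The animals were adult male Sprague-Dawley rats weighing 330 to 371 g at surgery. In 5 TBI rats, lateral fluid percussion, a pressure pulse onto the exposed dura with a mean of 3.32 atm, was delivered through a craniectomy of 5 mm over the left parietal lobe. The 5 sham rats had the same anesthesia and craniectomy without the pulse, so any effect of the craniectomy was present in both groups. Tissue of the left hippocampus was taken 3 months after surgery, and each library came from 1 rat. The TBI rats were not monitored by EEG, so which of them had developed epilepsy was not known.

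Neurotrophins are secreted growth factors that support the survival of neurons and the strength of their synapses. BDNF acts mainly through the tyrosine kinase TrkB, encoded by Ntrk2, and neurotrophin-3 mainly through TrkC, encoded by Ntrk3. The p75 receptor, encoded by Ngfr, binds all neurotrophins, and together with sortilin, encoded by Sort1, it binds their uncleaved precursors. In the hippocampus Bdnf is made by excitatory neurons and stored in the mossy fibers of dentate granule cells, while Ntrk2 is transcribed in neurons and, as a form without the kinase domain, in astrocytes.

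Total counts on RNA records were 23425817 to 31671838 per library. Ribosomal RNA took 59.0% and 58.5% of these counts in sham replicates 4 and 5, against 12.5% to 26.2% in the other 8 rats, which left fewer counts for messenger RNA in those 2 sham rats. Its mean share was 38.7% ± 18.3 (SD, n = 5) for sham and 19.7% ± 5.23 (SD, n = 5) for TBI (exact permutation test, two-sided, p = 0.0238), so ribosomal RNA and group could be told apart only in part. Among the markers, Grik4 and Bok of CA3 and Prox1 and C1ql2 of the dentate gyrus were detected in every rat. Iyd, a further CA3 marker, and Tdo2, a further marker of granule cells, were under 1 CPM in every rat. The summed level of 5 markers of dentate granule cells was 68.6 CPM in sham replicate 1 and 86.7 CPM in TBI replicate 5, and 127 to 212 CPM in the other rats. The summed level of 5 CA1 markers, a field outside the named tissue, was 54.1 to 112 CPM in sham rats and 226, 385, 108, 45.6 and 153 CPM in TBI replicates 1 to 5. CPM are counts scaled to a common library size after TMM normalization, and in bulk tissue fewer cells of a type and less RNA per cell cannot be told apart.

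The first question was whether the transcripts of these genes differed between TBI and sham rats. By the quasi-likelihood test of edgeR, 0 of the 21 member records had an adjusted p under 0.05, as did 0.00% of all records. An unadjusted p under 0.05 was found for 2 of the 21, against 7.89% of all records (4.89% higher and 3.00% lower in TBI). These were the main record of Ntrk2, with a log2 change of 0.21, and the main record of Ntrk3, with a log2 change of -0.30. The 21 records belong to 6 genes and are not independent tests. Among the 6 main records the count was 2, against 9.12% of the main records of all symbols. With the records of each gene summed, 0 of the 6 genes had an unadjusted p under 0.05, against 8.78% of all symbols. For Bdnf, Ntf3, Ngfr and Sort1 no record had an unadjusted p under 0.05. In none of the 21 records were the CPM values of the groups separate, against 0.923% of all records (0.499% higher and 0.424% lower in TBI). The study itself lists genes with an edgeR adjusted p under 0.05 for its TBI comparison. Its methods give 3 control rats for mRNA profiling, while the fit here used 5 sham rats. Why the 0.00% found here differs from that list was not tested.

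**Figure D1:**
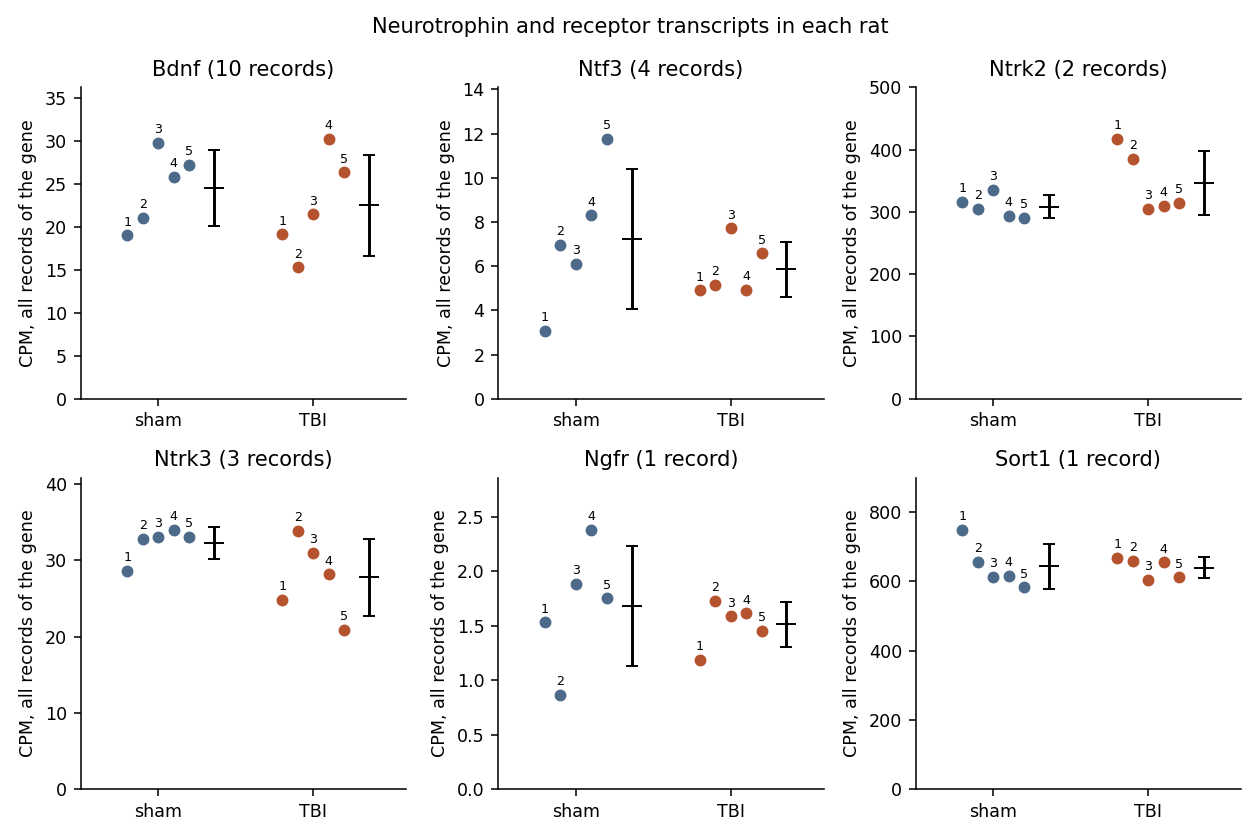
Level of each gene in each rat, in CPM summed over all RNA records of the gene (y axis, from 0). Points are rats, numbered by replicate, and the bars give the mean and SD of 5 rats. The groups overlap for all 6 genes, TBI replicates 1 and 2 are highest for Ntrk2, and TBI replicates 1 and 5 are lowest for Ntrk3.

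Among the ligands, Bdnf had 10 records that differ by transcript start and splicing. The main record (NM_012513.4) had 2.65, 3.06, 3.02, 3.47 and 3.31 CPM in sham replicates 1 to 5 and 2.03, 2.32, 2.79, 3.86 and 3.24 CPM in TBI replicates 1 to 5. TBI replicate 4 was above and TBI replicates 1 and 2 were below every sham rat, so the TBI rats were spread to both sides of the sham range. Sham rats averaged 3.10 CPM ± 0.311 (SD, n = 5) and TBI rats 2.85 CPM ± 0.730 (SD, n = 5). This gave a log2 change of -0.11, with a 95% interval from -0.46 to 0.24 (edgeR adjusted p = 0.906). The log2 change was -0.013 without TBI replicate 1 and -0.24 without TBI replicate 4. The counts behind these values were small, with 51 to 125 reads per rat.

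Each of the 10 Bdnf records held 5.75% to 15.2% of the reads of the gene in each rat, with no record dominant. The records share the exon that codes for the protein, and the sources do not say how a read that matches several records was assigned, so these shares do not measure the use of separate Bdnf promoters. The log2 changes of the 10 records were between -0.29 and 0.049. Summed over its records, Bdnf had 379 to 1016 reads per rat and averaged 24.5 CPM ± 4.44 (SD, n = 5) for sham against 22.5 CPM ± 5.88 (SD, n = 5) for TBI. The log2 change of the sum was -0.13, with a 95% interval from -0.52 to 0.26 (edgeR adjusted p = 0.866).

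Ntf3, which encodes neurotrophin-3, had 4 records. The main one (NM_001270869.1) had 0.780, 1.87, 1.46, 1.77 and 3.00 CPM in sham replicates 1 to 5, and 1.48, 1.52, 2.38, 1.14 and 1.74 CPM in TBI replicates 1 to 5. Both the lowest and the highest value were those of sham rats. Sham replicate 1 had 25 reads, for which counting error alone gives a 95% exact Poisson interval from 0.505 to 1.15 CPM, and sham replicate 5 had 48 reads with an interval from 2.21 to 3.98 CPM, so these sham rats differed by more than counting error. The log2 change was -0.042, with a 95% interval from -0.63 to 0.55 (edgeR adjusted p = 0.987).

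In the sum of the 4 records, Ntf3 was 7.24 CPM ± 3.17 (SD, n = 5) for sham and 5.86 CPM ± 1.25 (SD, n = 5) for TBI, and the order of the rats was similar, from 3.06 CPM for sham replicate 1 up to 11.7 CPM for sham replicate 5. Ntf3 is known to be expressed in dentate granule cells. The granule cell markers were lowest in sham replicate 1 and highest in sham replicate 5 as well, at 68.6 and 212 CPM in sum, while TBI replicate 5, with 86.7 CPM of these markers, had 6.58 CPM of Ntf3. The part of the dissection in the spread of Ntf3 was not tested. The log2 change of the main record became 0.28 without sham replicates 4 and 5 and 0.32 with the ribosomal RNA share as a covariate, so no direction can be given.

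**Figure D2:**
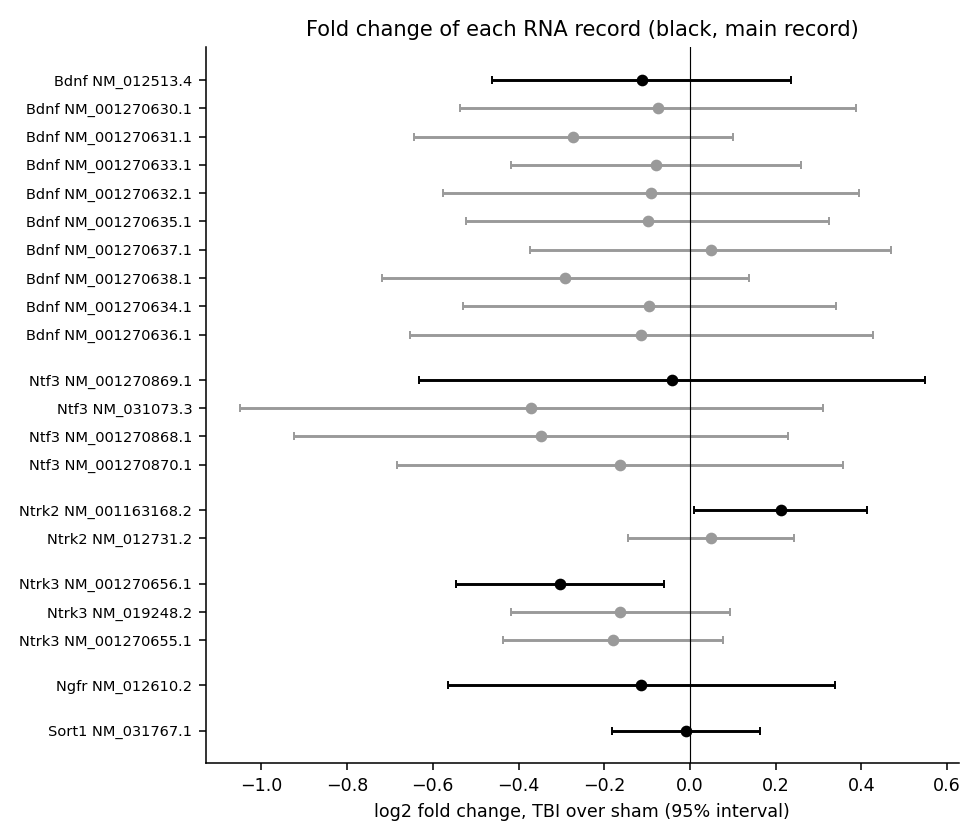
Log2 fold change of each of the 21 RNA records, TBI over sham, with its 95% interval from edgeR's quasi-likelihood fit (x axis). Black marks the main record of each gene and grey its other records. The intervals of the main records of Ntrk2 (from 0.0089 to 0.41) and Ntrk3 (from -0.55 to -0.061) lie on opposite sides of 0, and all others include 0.

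Of the Trk receptors, Ntrk2 had 2 records with many reads each. The main record (NM_001163168.2) had 223, 226, 248, 212 and 209 CPM in sham replicates 1 to 5 and 319, 282, 222, 232 and 240 CPM in TBI replicates 1 to 5. TBI replicates 1 and 2 were above every sham rat, and the other 3 TBI rats were within the sham range. Sham rats averaged 224 CPM ± 15.3 (SD, n = 5) and TBI rats 259 CPM ± 40.7 (SD, n = 5). This is a log2 change of 0.21 (SE 0.0966, edgeR adjusted p = 0.620). When single rats were left out in turn, the unadjusted p stayed under 0.05 in 4 of 10 fits. It was above 0.05 without sham replicate 1, 2, 4 or 5 or TBI replicate 1 or 2. The log2 change was 0.13 without TBI replicate 1 and 0.16 without sham replicates 4 and 5 together, both with an unadjusted p above 0.05.

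The other Ntrk2 record (NM_012731.2) had 78.9 to 92.6 CPM in sham and 74.7 to 103 CPM in TBI rats. Its mean was 84.4 CPM ± 5.60 (SD, n = 5) for sham and 87.3 CPM ± 12.6 (SD, n = 5) for TBI. The log2 change was 0.048, with a 95% interval from -0.14 to 0.24. The main record had 2.66 ± 0.191 (SD, n = 5) times as many reads as the other in sham and 2.97 ± 0.273 (SD, n = 5) times as many in TBI rats. On the log2 scale the other record fell short of the main one by more in TBI rats, with a difference of -0.16 (exact permutation p = 0.0873, adjusted p = 0.278 over 10 ratios), which did not pass. How a read that matches both Ntrk2 records was assigned is not given, so this ratio of reads does not measure separate isoforms. Which protein form each record encodes was not given in the sources used here, so no value is assigned to the kinase or the truncated form. Summed over the records, Ntrk2 had a log2 change of 0.17 with a 95% interval from -0.033 to 0.36 (edgeR adjusted p = 0.640).

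Astrocyte genes were read beside Ntrk2 because astrocytes express it. Of 7 astrocyte markers, 1 had an unadjusted p under 0.05 and was higher in TBI, against 6.08% of all symbols. The summed level of the 7 markers was 1528 to 1785 CPM in sham and 1519 to 1839 CPM in TBI rats. Of 7 markers of reactive astrocytes, 5 were higher and 1 lower at this threshold, against 6.08% and 3.04% of all symbols. Their summed level, most of it from Gfap, was 810.4 to 1699.6 CPM in sham and 1023 to 2480.1 CPM in TBI rats. TBI replicates 1 and 2, the rats with the most Ntrk2, also had the most of both sums among TBI rats, at 1715 and 1839 CPM for astrocytes and 2480.1 and 2310.3 CPM for reactive astrocytes. They had the most of the CA1 markers too. Sham replicate 4 had 1785 CPM of the astrocyte markers, above TBI replicate 1, with 212 CPM of the main Ntrk2 record. The part of astrocytes or of CA1 tissue in the level of Ntrk2 was not tested.

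Ntrk3 had 3 records of similar size. The main record (NM_001270656.1) had 10.2, 11.3, 11.7, 12.7 and 11.7 CPM in sham replicates 1 to 5 and 9.11, 11.5, 9.80, 9.05 and 7.02 CPM in TBI replicates 1 to 5. TBI replicate 2 was among the sham rats, and the other 4 TBI rats were below all of them. Sham rats averaged 11.5 CPM ± 0.914 (SD, n = 5) and TBI rats 9.29 CPM ± 1.61 (SD, n = 5). This is a log2 change of -0.30 (SE 0.116, edgeR adjusted p = 0.548). When single rats were left out in turn, the unadjusted p stayed under 0.05 in 9 of 10 fits, and it was above 0.05 without TBI replicate 5, where the log2 change was -0.22. It was also above 0.05 with the ribosomal RNA share as a covariate (-0.22) and without sham replicates 4 and 5 (-0.25).

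The other Ntrk3 records, NM_019248.2 and NM_001270655.1, had log2 changes of -0.16 and -0.18, and both intervals included 0. How a read that matches several of these records was assigned is not given, so differences between them do not measure separate isoforms. The 3 records held 30.4% to 37.4% of the Ntrk3 reads each. Their sum was 32.3 CPM ± 2.10 (SD, n = 5) for sham and 27.8 CPM ± 5.07 (SD, n = 5) for TBI. The log2 change of the sum was -0.22, with a 95% interval from -0.45 to 0.0073 (edgeR adjusted p = 0.574). Under scaling by total counts, which counts ribosomal RNA as library size and moved the median of all records from -0.0080 to 0.50, the change of the main record was 0.22 and thus stayed below that median.

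Ratios of counts within a library do not depend on how libraries are scaled. The main record of Ntrk2 had 21.9, 20.0, 21.2, 16.7 and 17.9 times as many reads as that of Ntrk3 in sham replicates 1 to 5 and 35.1, 24.6, 22.6, 25.7 and 34.2 times as many in TBI replicates 1 to 5. All 5 TBI rats were above all 5 sham rats. The log2 ratio averaged 4.28 ± 0.166 (SD, n = 5) for sham and 4.80 ± 0.289 (SD, n = 5) for TBI, a difference of 0.52 (exact permutation test, two-sided, p = 0.00794, the smallest this design can give). Adjusted over the 10 ratios computed the p was 0.0794, which is also the smallest that a single ratio among 10 could reach. This value is a ratio of reads and not of transcripts, since the records differ in length and lengths were not used.

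The size of this difference depended on the records and rats used. Among the 6 combinations of an Ntrk2 and an Ntrk3 record it was between 0.22 and 0.52, higher in TBI in each, with exact permutation p-values from 0.00794 to 0.206, and the groups were separate in the combination of main records alone. With the records of each gene summed it was 0.40 (two-sided exact permutation p = 0.0397), and without sham replicates 4 and 5, the sham rats with the lowest ratios, it was 0.41 (two-sided exact permutation p = 0.0714). In the 10 comparisons that each left out a rat it was 0.44 to 0.60.

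Markers of other cells were read beside this ratio, and each marker sum given here overlapped between the groups. TBI replicates 1 and 5, with the highest log2 ratios (5.13 and 5.09), had 226 and 153 CPM of the CA1 markers, above every sham rat. TBI replicate 2, with a log2 ratio of 4.62, had 385 CPM, the highest of all rats. TBI replicate 4, with a log2 ratio of 4.68, had 45.6 CPM, the lowest of all rats. For the granule cell markers, TBI replicate 5 had 86.7 CPM and sham replicate 1, with a log2 ratio of 4.45, had 68.6 CPM. TBI replicate 3, with the lowest log2 ratio among TBI rats (4.50), also had the lowest sum of reactive astrocyte markers among them, at 1023 CPM. Of 7 markers of GABAergic neurons, 3 were lower in TBI at an unadjusted p under 0.05, against 3.04% of all symbols. The summed level of the 7 markers was 180 to 255 CPM in sham and 132 to 211 CPM in TBI rats. The part of these cells in the ratio was not tested.

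**Figure D3:**
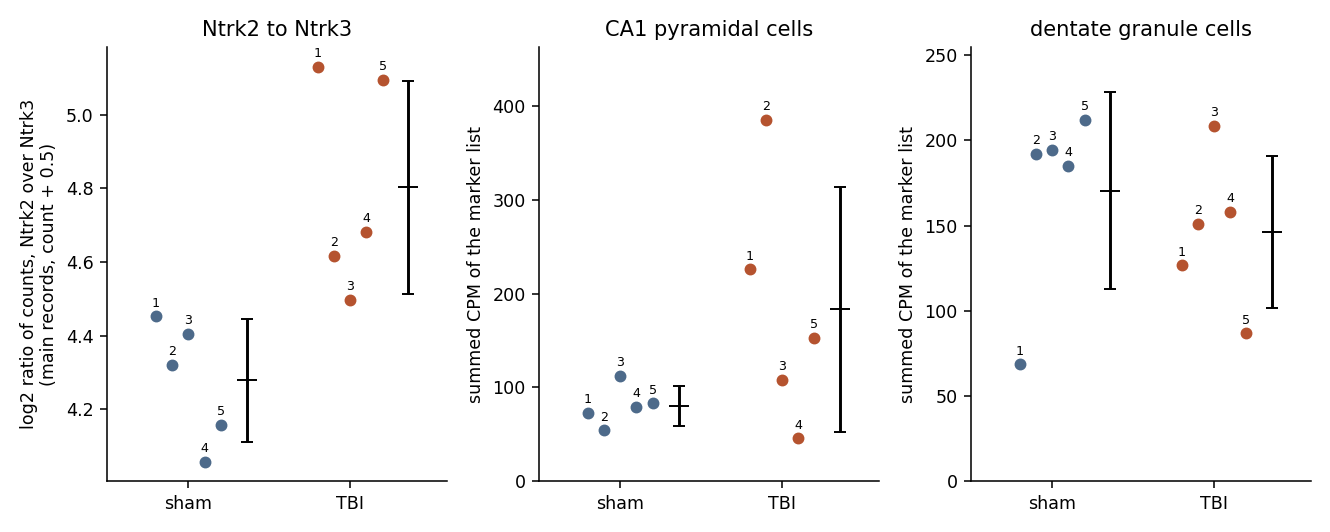
Log2 ratio of Ntrk2 to Ntrk3 reads (main records, left, y axis not from 0) beside the summed CPM of 5 CA1 markers (middle) and of 5 dentate granule cell markers (right). Points are rats, numbered by replicate, and bars give the mean and SD of 5 rats. The log2 ratio is 4.06 to 4.45 in sham and 4.50 to 5.13 in TBI rats, and both marker sums overlap between the groups, although 3 TBI rats are above every sham rat for the CA1 markers.

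The 3 ratios of a ligand to a receptor or to the other ligand were less uniform among rats. Bdnf to Ntrk2 differed by -0.36 on the log2 scale (two-sided exact permutation p = 0.286), Ntf3 to Ntrk3 by 0.30 (two-sided exact permutation p = 0.492) and Bdnf to Ntf3 by -0.13 (two-sided exact permutation p = 0.690). For each the adjusted p was above 0.5 and the groups overlapped. The SD values between rats of a group were 0.213 to 0.628. The difference in Bdnf to Ntrk2 was larger than its sham SD (0.213) and smaller than its TBI SD (0.563). The differences in Ntf3 to Ntrk3 and Bdnf to Ntf3 were smaller than the SD of either group. When single rats were left out, Bdnf to Ntrk2 was -0.51 (without TBI replicate 4) to -0.17 (without TBI replicate 1). Ntf3 to Ntrk3 was 0.078 (without sham replicate 1) to 0.51 (without sham replicate 5), and 0.036 with summed records.

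Ngfr, the p75 receptor, had 1 record with 24 to 65 reads per rat. It had 1.53, 0.862, 1.88, 2.38 and 1.75 CPM in sham replicates 1 to 5 and 1.19, 1.73, 1.58, 1.61 and 1.45 CPM in TBI replicates 1 to 5, so that all TBI rats lay within the sham range. The log2 change was -0.11, with a 95% interval from -0.56 to 0.34 (edgeR adjusted p = 0.931).

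Sort1, the sortilin co-receptor, had 9066 to 24726 reads per rat and was the most precisely measured member. It had 749, 655, 613, 616 and 582 CPM in sham replicates 1 to 5 and 668, 658, 604, 655 and 611 CPM in TBI replicates 1 to 5. Sham rats averaged 643 CPM ± 64.3 (SD, n = 5) and TBI rats 639 CPM ± 29.4 (SD, n = 5). The log2 change was -0.0088, with a 95% interval from -0.18 to 0.16 (edgeR adjusted p = 0.992), so that a change beyond 0.18 in either direction was outside the interval. The log2 ratio of Sort1 to Ngfr differed by 0.091 between the groups and that of Ngfr to Ntrk2 by -0.30, with exact permutation p-values of 0.778 and 0.341.

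The next question was whether other genes of the pathway moved. Of 129 such genes in 6 lists, 0 had an adjusted p under 0.05 by edgeR. An unadjusted p under 0.05 was found for 8, of which 7 were higher and 1 was lower in TBI, against 9.12% of the main records of all symbols (6.08% higher and 3.04% lower). Their median log2 change was 0.022, beside -0.0060 for the main records of all symbols. Among 9 further genes of the family, 0 had an unadjusted p under 0.05 by edgeR, and 1 had without sham replicate 5. Sorcs2 and Sorcs3, of the sortilin family, had log2 changes of -0.11 and -0.21, and Lingo1, a partner of p75, had 0.14. Ntf4 had 1 to 5 reads per rat and was below the filter.

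Of 12 proteases and other factors that process neurotrophin precursors, 2 had an unadjusted p under 0.05, both higher in TBI. Of the main records of all symbols 6.08% were higher at this threshold. Pcsk6, a proprotein convertase, averaged 25.5 CPM ± 3.23 (SD, n = 5) for sham and 31.1 CPM ± 3.94 (SD, n = 5) for TBI, with a log2 change of 0.29. Plat, the tissue plasminogen activator that can start cleavage of the BDNF precursor through plasmin, averaged 28.6 CPM ± 3.14 (SD, n = 5) for sham and 34.0 CPM ± 5.87 (SD, n = 5) for TBI, with a log2 change of 0.25. Their adjusted p-values by edgeR were 0.511 and 0.599. Pcsk1, a convertase of secretory granules, and Serpini1, an inhibitor of tissue plasminogen activator, had log2 changes of -0.13 and -0.14. The list's median was 0.014. The count of 2 was 1 without sham replicate 1, 4 or 5 or TBI replicate 1 or 5, and 1 with the ribosomal RNA covariate.

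Of 47 genes of Trk signalling, 1 was higher and 1 lower at an unadjusted p of 0.05. The shares of the main records of all symbols were 6.08% higher and 3.04% lower. Shc1, an adaptor that binds the activated receptor, averaged 5.12 CPM ± 0.601 (SD, n = 5) for sham and 6.66 CPM ± 0.932 (SD, n = 5) for TBI, with a log2 change of 0.38 (edgeR adjusted p = 0.487). Mapk3, the kinase ERK1, had a log2 change of -1.52, but its record had 3916 and 2350 CPM in sham replicates 4 and 5, the libraries rich in ribosomal RNA, and 372 to 820 CPM in the other 8 rats. The part of those libraries in its change was not tested. Sos1, an exchange factor for Ras, and Rps6ka1, a kinase downstream of ERK, had log2 changes of -0.18 and 0.20. The median of this list was -0.019. The count of 2 was 4 without sham replicate 3 or TBI replicate 1, and 1 without sham replicate 4 or 5 or TBI replicate 2, 4 or 5.

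Of 26 genes of p75 signalling and 19 regulators of Bdnf transcription, 0 had an unadjusted p under 0.05. Of the main records of all symbols 9.12% passed this threshold. In the p75 list Mapk10 had a log2 change of -0.16, and Rela and Arhgdia had 0.18 and 0.14. Among the regulators Crebbp and Hdac2 had log2 changes of -0.21 and -0.14, and Bhlhe40 and Usf2 had 0.22 and 0.16. Their lists had medians of -0.015 and 0.052. These counts of 0 did not hold throughout. When single rats were left out, the p75 list had 0 to 3 such genes, with 3 without sham replicate 3, and 0 only without sham replicate 2 or TBI replicate 2. The regulators had 0 to 2, with 2 without sham replicate 5 or TBI replicate 5, and 0 only without sham replicate 4 or TBI replicate 1. By DESeq2 the counts were 1 and 0, by voom 3 and 2, and with total counts outside ribosomal RNA 5 and 6.

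Of 20 genes that BDNF is known to induce, 4 were higher in TBI at an unadjusted p of 0.05 and 0 were lower, against 6.08% of all symbols higher. The list's median log2 change was 0.21. Ier2 and Atf3, immediate early and stress genes, had log2 changes of 0.54 and 0.87, and Nr4a1 and Dusp6, an orphan nuclear receptor and a phosphatase of ERK, had 0.49 and 0.26. Their adjusted p-values by edgeR were 0.508, 0.548, 0.548 and 0.536. Atf3 and Nr4a1 fall outside the rule for naming genes and were chosen after their values were seen. Atf3 averaged under 1 CPM in each group. With the ribosomal RNA share as a covariate the count was 1, and without sham replicates 4 and 5 it was 2. Klf10 and Nrn1 had the smallest p-values among the lower genes, with log2 changes of -0.18 each.

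**Figure D4:**
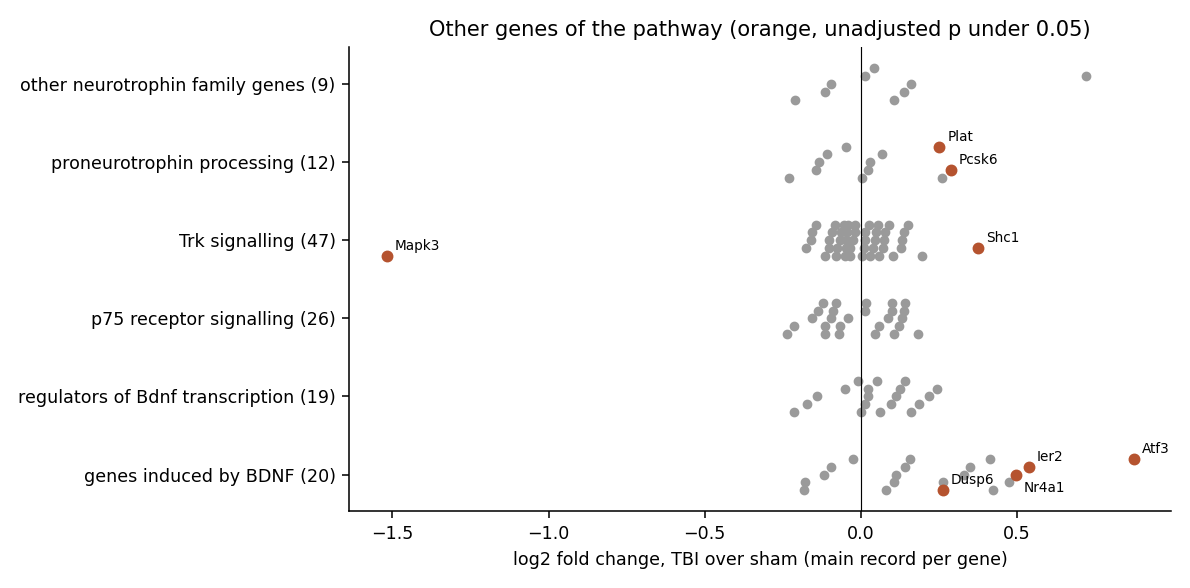
Log2 fold change, TBI over sham, of the genes tested in 6 lists of the pathway (x axis, main record of each gene, number of genes in brackets). Orange points had an unadjusted p under 0.05 and are named. Mapk3, at -1.52, stands far from the others, and 4 named genes are in the list of genes induced by BDNF.

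The transcripts whose levels varied most like those of each member were sought among 8279 or 8280 symbols with at least 5 CPM, as the Pearson correlation of log2 CPM over the 10 rats after subtracting the group means. For Ntrk2 they were Tbccd1, Ccdc80 and Scarb2, with r of 0.963, 0.963 and 0.961. For Ntrk3 they were Atxn1, Gfod1 and Galnt2, with r of 0.940, 0.940 and 0.931. For Sort1 they were Tmem178b, Nt5dc3 and Cacna1i, with r from 0.956 to 0.959. The closest to Bdnf, Ntf3 and Ngfr were Ube2q2l, Ammecr1l and Abhd17a, with r of 0.945, 0.960 and 0.918. These are the highest of all these correlations over 10 rats that share library make-up and dissection, and they are given as a description only.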

How the data were processed

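Messenger RNA was measured in 5 sham and 5 TBI rats. The authors selected poly-A RNA, sequenced single reads of 36 bases, aligned them with BWA to rn4 and counted them with a custom script. The methods of the study name Ensembl transcripts, but the rows are RefSeq RNA records, and how this goes together was not given in the sources used here. The deposited values are raw counts per record, with no normalization or pooling, and strand was not stated. Unmapped reads (median 22.2% of a library) were left out. Symbols came from RefSeq genes of GRCr8, used for names only, and matched 54.2% of records and 57.7% of those tested.

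Following the study, records at or above the 30th percentile of total counts (44) were kept. Groups were compared with edgeR 4.0.16 (quasi-likelihood F test, robust, TMM) in R 4.3.3, with Benjamini-Hochberg adjustment over 22431 records. The smallest adjusted p was 0.477. Ratios of counts (count + 0.5) were compared with two-sided exact permutation tests over 252 splits. No library was a copy of another (chi-square of counts per degree of freedom at least 7.35). Precision follows the reads per record, and counting intervals cover counting error only. Each rat has its own number in the labels, so replicate numbers pair no rats. The p-values judge a difference between groups against the spread between rats.

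The members, gene lists and tests were chosen with earlier results of these data known. Named were all members, from each list the 2 genes with the smallest p in each direction, and for each member the 3 symbols with the highest correlation (for Bdnf, Ntf3 and Ngfr only the first is given). Some genes under this rule are not reported here. Ngfrap1 was read as Bex3. Alternatives were DESeq2 1.42.0, edgeR's exact test, voom in limma 3.58.1, other scalings and filters, a ribosomal RNA covariate, records summed per symbol, and leaving out rats, including 3 of 5 sham rats, the number the methods give for mRNA profiling. The combinations of Ntrk2 and Ntrk3 records were added after seeing the data. Figures were drawn with matplotlib 3.10.9.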

Additional observations from a re-analysis of the deposited data

Results flagged for a closer look

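Dixon's ratio, the gap of an extreme rat to its nearest neighbour over the range of its group, was computed in 40 groups of 5 rats (levels of members, ratios and library measures). It exceeded 0.710, the 95% critical value, in 3 groups, and chance gives 2. TBI replicate 1 had a log2 ratio of Ngfr to Ntrk2 of -8.05, below the other TBI rats (-7.36 to -7.12), and a log2 ratio of Sort1 to Ngfr of 9.12, above the others (8.56 to 8.71). Both ratios share its Ngfr count of 41 reads. TBI replicate 2 had a log2 ratio of the second to the main Bdnf record of -0.46, below the others (-0.012 to 0.080).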

How the results depend on the processing

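The count of member records with an unadjusted p under 0.05 was 2. It was 1 with voom, with scaling by total counts, and with total counts outside ribosomal RNA. With 3 of the 5 sham rats it was 0 to 4 over 10 choices, with a median of 1. It was 0 with the ribosomal RNA covariate, with records summed per symbol and without sham replicates 4 and 5. It was 1 to 3 when a rat was left out, with 1 without sham replicate 2, 4 or 5 or TBI replicate 1 or 5. Of the pathway genes 8 passed. This was 27 with total counts, 24 with total counts outside ribosomal RNA, 5 with the ribosomal RNA covariate, and 7 to 15 when a rat was left out (15 without sham replicate 3).

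The Ntrk2 to Ntrk3 ratio (0.52) stayed past 0.05 in exact permutation tests with a pseudocount of 5 and with summed records. It also did so when any 1 rat was left out. Groups that are separate with all rats stay separate without any 1 of them. The tests without 1 rat thus had little room to come out otherwise. The ratio did not stay past 0.05 without sham replicates 4 and 5 (0.41). Among record combinations it was 0.39 (NM_001163168.2 over NM_019248.2), 0.22 (NM_012731.2 over NM_019248.2) and 0.24 (NM_012731.2 over NM_001270655.1) in those that did not pass. The ranges when a rat was left out were -0.51 to -0.17 for Bdnf to Ntrk2, 0.078 to 0.51 for Ntf3 to Ntrk3, -0.52 to -0.13 for Ngfr to Ntrk2, -0.20 to -0.13 for the Ntrk2 records, 0.11 to 0.20 for the Ntrk3 records, -0.37 to 0.075 for Bdnf to Ntf3, -0.067 to 0.32 for Sort1 to Ngfr and -0.038 to 0.16 for the Bdnf records. Bdnf to Ntf3 was 0.054 with summed records, and Sort1 to Ngfr -0.21 without sham replicates 4 and 5. With all rats the second to the main Ntrk3 record differed by 0.14 (exact permutation p = 0.0873). It passed 0.05 without TBI replicate 1 (0.20, exact permutation p = 0.00794). Ngfr to Ntrk2 did so without sham replicate 2, and the Ntrk2 records without TBI replicate 3 (exact permutation p = 0.0476 each). When any other rat was left out, these ratios had p above 0.05.

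Signs of log2 changes turned in some settings, each with a p above 0.05. With total counts they were 0.42 for Bdnf, 0.54 for Ntf3, 0.22 for Ntrk3, 0.46 for Ngfr and 0.47 for Sort1, when the median of all records was 0.50. With total counts outside ribosomal RNA, which moved that median to 0.14, they were 0.033 for Bdnf, 0.11 for Ntf3, 0.043 for Ngfr and 0.14 for Sort1. With the ribosomal RNA covariate they were 0.32 for Ntf3 and 0.14 for Ngfr, without sham replicates 4 and 5 they were 0.28 and 0.083, and with voom Sort1 had 0.011. When a rat was left out the log2 changes were -0.24 to -0.013 for Bdnf, -0.26 to 0.20 for Ntf3, -0.29 to 0.012 for Ngfr, -0.046 to 0.048 for Sort1 and -0.019 to 0.10 for the other Ntrk2 record. Why these values moved was not tested. No paired analysis was possible because the labels give each rat its own number.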
